A study of Mus musculus with 16 samples.

Results

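Cholesterol handling was examined through 35 genes in the ovaries of aged mice: 20 enzymes of cholesterol synthesis, 8 genes of uptake, intracellular transport, storage and efflux, and 7 regulators. A probe belonged to the set when its gene name in the array files, or the current symbol of its accession, was a member, and each gene was represented by its brightest probe over the 16 arrays. All 35 genes were measured, among 24584 features tested (18291 of them with a gene symbol).

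Whole ovaries of 1 year old mice were profiled on single-colour microarrays in 4 groups of 4 arrays. Control ovaries kept a single allele of each estrogen receptor. Ex3aERKO ovaries came from knockouts of ERα, Ex3bERKO ovaries from knockouts of ERβ, and Ex3abERKO ovaries from mice without either receptor. How many alleles of the remaining receptor the single knockouts carried, the strain, the stage of the cycle and any Cre driver or promoter are not given in the sources used here. The study asked about the part of the 2 receptors in the transdifferentiation of granulosa cells, the follicle's supporting cells, in aged ovaries. Nothing in the labels tells whether a group's 4 arrays were 4 animals, so the p-values weigh differences only against the spread between arrays, and that spread may be technical.

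Cholesterol is built from acetyl-CoA through mevalonate, isoprenoid diphosphates, squalene and lanosterol. When sterol in the endoplasmic reticulum is low, SCAP escorts the transcription factor SREBP-2, product of Srebf2, to the Golgi for cleavage, and SREBP-2 then turns on the synthesis enzymes together; INSIG proteins hold the complex back when sterol is plentiful. The liver X receptors, products of Nr1h2 and Nr1h3, respond to oxysterols and turn on efflux pumps and MYLIP, a ubiquitin ligase that limits lipoprotein uptake. In the ovary cholesterol is the substrate of all steroid hormones, and luteal cells hold large stores of it as esters.

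A value is called a level here when it is log2 of a probe's signal relative to the 75th percentile of its array. A level of 0 is thus the signal of that percentile, and levels of different genes cannot be ranked against each other because they come from different probes. A difference is given on the log2 scale as the knockout mean minus the control mean, with the standard error of the limma fit over all 16 arrays. A gene was called when its Benjamini-Hochberg adjusted p over all 24584 features was under 0.05. All 35 member probes were well above background on all 16 arrays, and none was saturated.

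Short stretches of the promoters are printed first, because the synthesis genes moved together in these ovaries. They were taken from RefSeq sequence of GRCm38.p6, where a window of 250 bases before to 50 after a transcription start was held for 17 of the 20 synthesis genes, 5 of the 8 uptake and efflux genes and all 7 regulators. Capitals mark TCACNCCA, the core of a sterol regulatory element, CCAAT, the box read by NF-Y, and GGGCGG, the box read by Sp1, each on either strand. The 3 members whose window held TCACNCCA were Srebf2 (chr15:82147067-82147154, plus strand), Hmgcs1 (chr13:119690174-119690261, plus strand) and Msmo1 (chr8:64733708-64733795, minus strand).
Srebf2: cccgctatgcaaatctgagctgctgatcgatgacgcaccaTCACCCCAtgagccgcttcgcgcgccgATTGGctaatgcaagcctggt
Hmgcs1: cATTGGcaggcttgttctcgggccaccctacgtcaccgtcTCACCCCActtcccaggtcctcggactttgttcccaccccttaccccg
Msmo1: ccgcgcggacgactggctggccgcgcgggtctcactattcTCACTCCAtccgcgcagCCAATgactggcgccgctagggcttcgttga

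Each of these 3 stretches also held a CCAAT box, as ATTGG where it lies on the other strand. The stretches below show the CCAAT boxes of 3 synthesis genes, Mvd (chr8:122443423-122443489, minus strand), Lss (chr10:76531503-76531587, plus strand) and Cyp51 (chr5:4104698-4104766, minus strand), and of 2 genes of the opposite direction in the ovaries without either receptor, Mylip (chr13:45389635-45389719, plus strand) and Lipa (chr19:34527475-34527540, minus strand).
Mvd: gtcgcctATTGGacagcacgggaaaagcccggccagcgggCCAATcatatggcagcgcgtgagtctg
Lss: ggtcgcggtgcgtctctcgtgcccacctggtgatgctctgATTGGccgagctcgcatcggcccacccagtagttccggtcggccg
Cyp51: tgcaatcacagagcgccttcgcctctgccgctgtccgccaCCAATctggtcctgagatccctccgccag
Mylip: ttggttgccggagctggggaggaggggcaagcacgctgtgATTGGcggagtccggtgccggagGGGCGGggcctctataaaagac
Lipa: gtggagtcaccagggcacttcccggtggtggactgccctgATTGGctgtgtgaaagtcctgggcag

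CCAAT was found for 16 of the 17 synthesis genes, 4 of the 5 uptake and efflux genes and 4 of the 7 regulators, against 41.1% of all 27025 genes in the table. GGGCGG was found for 15 of 17, 5 of 5 and 5 of 7, against 38.2% of all genes. TCACNCCA was held by 4.97% of all genes. CAAGGTCA, the site of Nr5a1 and Nr5a2, was found in front of Dhcr7 alone among the members, against 1.76% of all genes. The full palindromic estrogen response element (0.0740% of all genes) and the perfect direct repeat of the liver X receptors (0.0148%), searched by exact letters, were found in no member window. A match is a run of letters and no measure of binding, and the search did not reach beyond these windows.

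The synthesis enzymes were called only lower, and most often in the ovaries without either receptor, while the uptake and efflux genes had calls in both directions. In those ovaries 16 of 20 synthesis enzymes were called lower and none higher, while 4 of 8 uptake and efflux genes were called higher and 2 lower. Of all features, 11.6% were called lower there and 10.7% higher. In each single knockout fewer synthesis enzymes were called lower, 5 of 20 in Ex3aERKO and 4 of 20 in Ex3bERKO. Of all features, 4.15% and 0.635% were called lower in these comparisons. Of the uptake and efflux genes 1, Npc1, was called higher in Ex3aERKO, beside 3.79% of all features. Without 3 arrays with high marker genes of other tissues, named below, none of these single knockout calls remained. The 3 knockout groups were compared with the same 4 control arrays, so these 3 comparisons are not independent of each other.

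**Figure D1:**
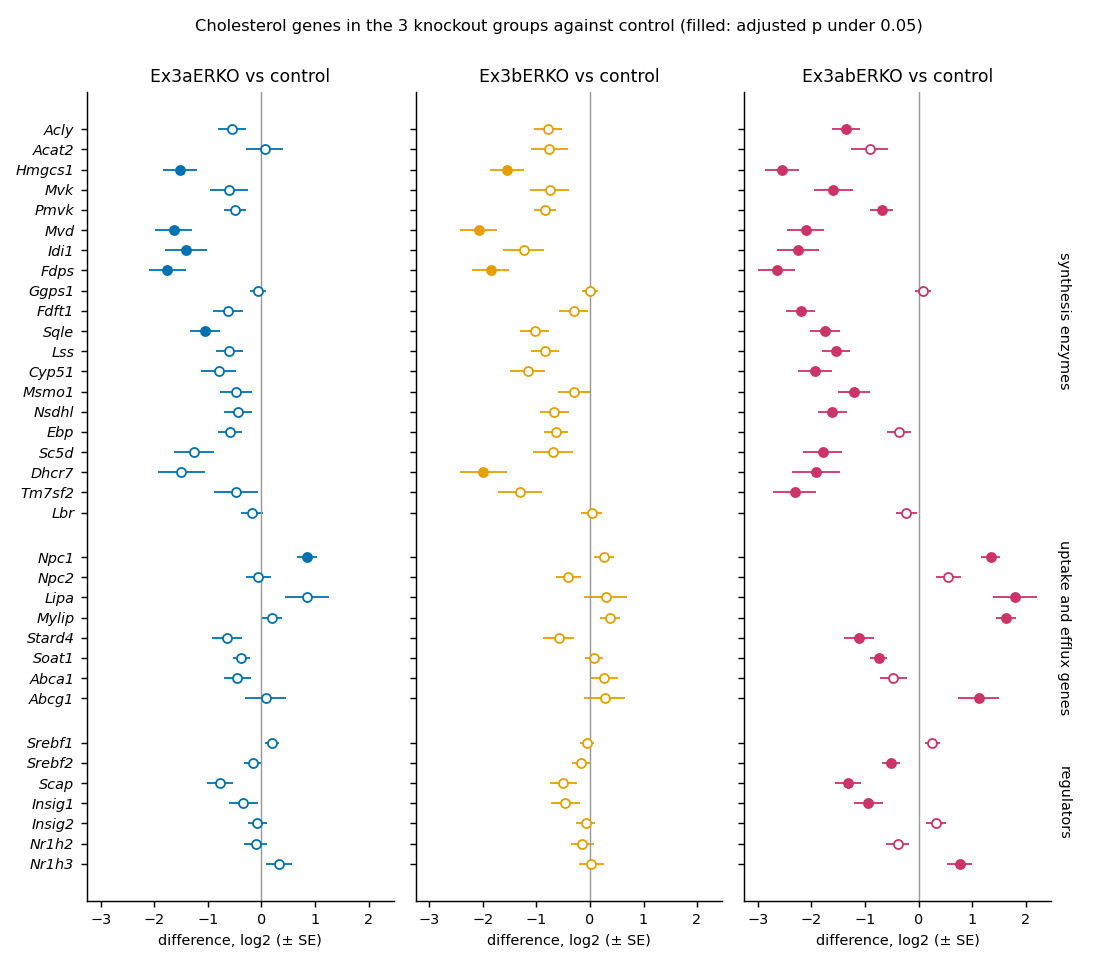
Log2 difference from control for each of the 35 genes, ordered by role, with the standard error as a horizontal bar, for Ex3aERKO, Ex3bERKO and Ex3abERKO; filled points have an adjusted p under 0.05. The synthesis enzymes lie mostly left of 0 in all 3 comparisons and furthest in Ex3abERKO, where Fdps is at -2.65, while Mylip, Lipa and Npc1 lie right of 0 there at 1.64, 1.80 and 1.35.

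On the arrays 80.4 to 87.6% of spots were well above background, and arrays of a group correlated at 0.954 to 0.986. The 75th percentile, by which each array was scaled, was 1211 to 1555 in Ex3abERKO and 1307 to 1753 in control. It was 1650 to 1749 in Ex3aERKO and 1621 to 1806 in Ex3bERKO, above every Ex3abERKO array. Marker genes of other tissues were high on some arrays, and their source was not tested. Liver genes were highest on Ex3aERKO 2, oviduct genes on Ex3abERKO 2 and red blood cell genes on control 4. The list medians there were 7.35, 4.85 and 2.60 above the control mean. Red blood cell medians also reached 1.83 in Ex3aERKO and 1.96 in Ex3abERKO. Calls are also given without Ex3aERKO 2, Ex3abERKO 2 and control 4, a smaller design of 13 arrays. That design did not even out the red blood cell genes. Their median difference from control went from 0.93 to 1.99 in Ex3abERKO and from 1.35 to 2.03 in Ex3aERKO. In Ex3bERKO it went from -0.26 to 0.57. The arrays lay on 4 slides, and arrays of different groups on the same slide deviated together (median r 0.28 over 22 pairs, against -0.07 over 74 pairs on different slides), so differences are also given within slides. The level of Esr1, which encodes ERα, was -0.32 to 0.20 in control, -3.65 to -1.89 in Ex3aERKO and -2.10 to -1.03 in Ex3abERKO. Neither of these knockout groups overlapped control, though they overlapped each other. In Ex3bERKO it was -1.06 to 0.34. The level of Esr2, which encodes ERβ, was -0.33 to 0.35 in control and -2.53 to -1.60 in Ex3abERKO, but -0.58 to 1.00 in Ex3bERKO, where it was not lower. Whether these probes lie in the deleted parts was not analysed here, so the Esr2 probe gives no check of the Ex3bERKO label.

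In ovaries lacking both receptors, enzymes from Hmgcs1, which makes HMG-CoA, to the last reductions of sterol were lower, most of them 2.31 to 6.27-fold. The exceptions in size and in call were few: Pmvk fell 1.61-fold, and Acat2, Ggps1, Ebp and Lbr did not pass. Fdps, Hmgcs1, Tm7sf2, Idi1 and Fdft1 had the largest falls. The background was high in this comparison: 22.3% of all features were called, 11.6% lower and 10.7% higher. Against that background 16 of 20 synthesis enzymes were called lower and 0 higher in the limma fit (0 higher also at an unadjusted p under 0.05), their median difference was -1.67 beside -0.11 over all features, and 13 of the 20 had all 4 knockout arrays below all 4 control arrays, as had 13.3% of all features. Without the 3 arrays above, 13 synthesis enzymes were called and the median was -1.51. These are mixed tissues, in which fewer cells of a type and less RNA per cell cannot be told apart.

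Hmgcs1 makes HMG-CoA from acetyl-CoA units, an early step of the pathway, and its probe lies on an unplaced sequence of the mm7 build (chrUn_random:9357630-9357689). The control arrays read 6.05, 4.84, 6.10 and 6.31, the Ex3aERKO arrays 4.60, 4.59, 4.33 and 3.70, the Ex3bERKO arrays 4.35, 4.24, 4.17 and 4.36 and the Ex3abERKO arrays 3.68, 3.01, 3.71 and 2.68. All 12 knockout arrays were below the lowest control array, and the Ex3abERKO arrays were the lowest group, with Ex3aERKO 4 just inside their range. The difference from control was -1.52 ± 0.32 in Ex3aERKO (adjusted p = 0.0092), -1.55 ± 0.32 in Ex3bERKO (adjusted p = 0.0324) and -2.56 ± 0.32 in Ex3abERKO (5.88-fold lower, adjusted p = 0.000148). Its promoter, printed above, was one of 3 with TCACNCCA.

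Mvd, which decarboxylates mevalonate diphosphate to give the first isoprenoid unit, has its probe at chr8:121075855-121075914 (mm7). Levels were 2.31, 0.56, 1.80 and 2.16 on the control arrays, 0.39, 0.25, -0.17 and -0.19 with ERα lost, -0.67, -0.29, -0.17 and -0.36 with ERβ lost, and 0.33, -0.40, -1.0 and -0.52 with both lost. No knockout array reached the controls, of which control 2 was the lowest. Unlike Hmgcs1, Mvd was not lower without both receptors than without ERβ alone. The difference was -1.64 ± 0.35 in Ex3aERKO (adjusted p = 0.00954), -2.08 ± 0.35 in Ex3bERKO (adjusted p = 0.00885) and -2.11 ± 0.35 in Ex3abERKO (4.30-fold lower, adjusted p = 0.000781). The 2 last groups differed by -0.03 ± 0.35 (adjusted p = 0.972).

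Fdps joins isoprenoid units into farnesyl diphosphate, the branch point from which squalene, dolichol and the anchors of prenylated proteins are made, and its probe spans chr3:89208691-89208831 (mm7). The control arrays read 5.39, 3.76, 4.54 and 5.30, the Ex3aERKO arrays 3.35, 3.01, 2.54 and 3.06, the Ex3bERKO arrays 3.11, 2.84, 2.99 and 2.64 and the Ex3abERKO arrays 2.84, 2.01, 2.15 and 1.40. The controls stood clear of all other arrays, while the knockout groups overlapped one another. The fall was by 1.76 in Ex3aERKO (SE 0.35, adjusted p = 0.00664), by 1.86 in Ex3bERKO (SE 0.35, adjusted p = 0.0188) and by 2.65 in Ex3abERKO (SE 0.35, 6.27-fold, adjusted p = 0.000194), the largest fall of any member.

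Fdft1, squalene synthase, commits farnesyl diphosphate to sterols, and its probe spans chr14:58010811-58015051 (mm7). Levels were 3.38, 2.52, 2.89 and 3.11 on the control arrays, 2.72, 2.28, 1.96 and 2.43 with ERα lost, 2.83, 2.85, 2.61 and 2.38 with ERβ lost, and 1.63, 0.70, 0.25 and 0.51 with both lost. The pattern differed from the previous 3 genes: the single knockouts overlapped the controls and the arrays without both receptors stood below every other array. The difference was -2.20 ± 0.28 in Ex3abERKO (4.60-fold lower, adjusted p = 0.000149), and -0.63 ± 0.28 (adjusted p = 0.203) and -0.31 ± 0.28 (adjusted p = 0.85) in the ERα and ERβ knockouts. A second, dimmer Fdft1 probe went the other way without either receptor (0.58, adjusted p = 0.169 in a fit over probes).

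Sqle, the epoxidase that puts the first oxygen on squalene, has its probe at chr15:59397289-59397348 (mm7). The control arrays read 2.92, 2.13, 3.00 and 3.34, the Ex3aERKO arrays 2.26, 2.03, 1.70 and 1.19, the Ex3bERKO arrays 1.84, 1.82, 1.85 and 1.76 and the Ex3abERKO arrays 1.50, 0.96, 1.38 and 0.59. Ex3aERKO overlapped the control group only through its first array, which lay above control 2. Sqle fell by 1.06 in Ex3aERKO (SE 0.28, adjusted p = 0.0301) and by 1.74 in Ex3abERKO (SE 0.28, adjusted p = 0.000615), and its difference in Ex3bERKO was -1.03 ± 0.28 (adjusted p = 0.109).

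Lss, lanosterol synthase, closes the sterol rings, and its probe is at chr10:76212419-76212478 (mm7). Levels were 1.35, 0.12, 0.47 and 0.86 on the control arrays, 0.42, 0.31, 0.00 and -0.33 with ERα lost, -0.05, -0.04, -0.34 and -0.13 with ERβ lost, and -0.83, -0.82, -0.42 and -1.29 with both lost. The arrays without both receptors were below all others. Lss fell by 1.54 there (SE 0.26, 2.91-fold, adjusted p = 0.000815), and its differences in Ex3aERKO and Ex3bERKO were -0.60 ± 0.26 (adjusted p = 0.184) and -0.84 ± 0.26 (adjusted p = 0.178). The 2 other, dimmer Lss probes gave larger differences that were called in a fit over probes, -1.68 (adjusted p = 0.00834) and -1.56 (0.00511) in Ex3aERKO and -2.16 (0.00656) and -1.84 (0.00661) in Ex3bERKO, so the single knockout result for Lss depends on the probe.

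Other early enzymes were lower in the same ovaries. Acly, which supplies acetyl-CoA from citrate, fell 2.55-fold (adjusted p = 0.00215), Mvk, mevalonate kinase, 3.01-fold (adjusted p = 0.00624), and Idi1, which interconverts the isoprenoid isomers, 4.75-fold (adjusted p = 0.00107). The level of Mvk in Ex3abERKO reached from -2.45 to -0.16, a wide spread set by array 3. The probe of Idi1 is placed on chromosome 2 in the files, whereas RefSeq places the gene on chromosome 13. Pmvk, phosphomevalonate kinase, fell by 0.69 (SE 0.21, adjusted p = 0.0295) with overlapping groups, and this call was lost without any of control 1, 3 or 4 or Ex3abERKO 2 or 4, with adjusted p up to 0.0918.

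Most enzymes that turn lanosterol into cholesterol followed. Tm7sf2, a sterol C14 reductase, fell 4.98-fold (adjusted p = 0.00116), Cyp51, the lanosterol demethylase, 3.81-fold (adjusted p = 0.000842), Dhcr7, the reductase of the last step, 3.78-fold (adjusted p = 0.0066) and Sc5d, a sterol desaturase, 3.47-fold (adjusted p = 0.0033). Nsdhl and Msmo1, which act together to remove the C4 methyl groups, fell 3.05-fold (adjusted p = 0.000863) and 2.31-fold (adjusted p = 0.0094). Dhcr7 and Msmo1 overlapped the controls, Dhcr7 because its control levels ran from 2.25 to 4.98. Without the 3 arrays above, Dhcr7 (adjusted p = 0.0663), Msmo1 (0.0917) and Pmvk (0.185) were no longer called.

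The 4 synthesis members that did not pass were Acat2, an acetoacetyl-CoA thiolase (-0.92 ± 0.35, adjusted p = 0.0744), Ebp, a sterol isomerase (-0.36 ± 0.22, adjusted p = 0.279), Lbr, which joins a sterol reductase to a nuclear lamina receptor (-0.23 ± 0.20, adjusted p = 0.475), and Ggps1 (0.08 ± 0.15, adjusted p = 0.787). Ggps1 makes geranylgeranyl diphosphate, a side branch that leads away from sterols, and it alone of the 20 had a positive difference.

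The uptake, transport and efflux genes moved in both directions in the ovaries without either receptor. Mylip, Lipa, Npc1 and Abcg1 rose and Stard4 and Soat1 fell. In the limma fit these were 4 of 8 higher and 2 of 8 lower, with a median difference of 0.84 beside -0.11 over all features and with 10.7% and 11.6% of all features called in those directions. Without the 3 arrays above, 3 were called higher and 1 lower, and the median was 0.97.

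Mylip, the ligase that limits lipoprotein uptake, had the smallest adjusted p of the 35 genes, and its probe is at chr13:44861360-44861419 (mm7). The control arrays read 0.72, 0.83, 0.44 and 0.72, the Ex3aERKO arrays 0.66, 0.89, 1.15 and 0.79, the Ex3bERKO arrays 1.21, 1.28, 1.07 and 0.64 and the Ex3abERKO arrays 1.97, 2.25, 2.57 and 2.47. Every array without both receptors lay above all others, and both single knockouts overlapped the controls. Mylip rose by 1.64 ± 0.18 in Ex3abERKO (3.11-fold, adjusted p = 6.73e-05), with differences of 0.20 ± 0.18 in Ex3aERKO (adjusted p = 0.64) and 0.37 ± 0.18 in Ex3bERKO (adjusted p = 0.536).

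Npc1, which exports cholesterol from late endosomes and lysosomes, has its probe at chr18:12540769-12540828 (mm7). Levels were -1.24, -1.03, -1.02 and -1.20 on the control arrays, -0.51, 0.08, -0.11 and -0.57 with ERα lost, -1.0, -0.41, -0.84 and -1.20 with ERβ lost, and 0.22, 0.15, 0.38 and 0.13 with both lost. The order ran from control and Ex3bERKO, which overlapped, through Ex3aERKO to Ex3abERKO, each clear of the controls. Npc1 rose by 0.84 ± 0.19 in Ex3aERKO (1.79-fold, adjusted p = 0.0119) and by 1.35 ± 0.19 in Ex3abERKO (2.54-fold, adjusted p = 0.000251), and its difference in Ex3bERKO was 0.26 (adjusted p = 0.766).

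Soat1 esterifies cholesterol for storage in droplets, and its probe is at chr1:156392448-156392507 (mm7). The control arrays read 4.83, 4.30, 4.94 and 4.56, the Ex3aERKO arrays 4.43, 4.36, 4.20 and 4.13, the Ex3bERKO arrays 4.50, 4.87, 4.85 and 4.72 and the Ex3abERKO arrays 4.09, 3.98, 3.89 and 3.70. The arrays without both receptors were below every other array by a small margin. Soat1 fell by 0.74 there (SE 0.16, 1.67-fold, adjusted p = 0.00456), with differences of -0.38 ± 0.16 in Ex3aERKO (adjusted p = 0.185) and 0.07 in Ex3bERKO (adjusted p = 0.969). Of the 3 other Soat1 probes, the 2 on chromosome 1 had differences of -0.70 (adjusted p = 0.051) and -0.80 (0.252), the probe placed on chromosome 7 in the files had 0.66 (0.080), and the mean of the Soat1 probes was not called (adjusted p = 0.155).

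Of the others, Lipa, the lysosomal acid lipase that frees cholesterol from esters, rose 3.49-fold without either receptor (adjusted p = 0.00584), from 0.46 to 0.97 in control to 1.72 to 3.15. Abcg1, an efflux pump to lipoprotein particles, rose 2.18-fold (adjusted p = 0.0462), but the call was lost without the 3 arrays (adjusted p = 0.1) and without any of control 1 or 3, Ex3aERKO 3 or 4 or Ex3abERKO 2, 3 or 4, with adjusted p up to 0.148. Stard4, a soluble sterol carrier, fell 2.16-fold (adjusted p = 0.0116, and 0.0588 without the 3 arrays). Npc2, which hands lysosomal cholesterol to NPC1, differed by 0.56 ± 0.23 with no overlap between the groups and did not pass (adjusted p = 0.0993). Abca1, the pump that loads apolipoproteins, differed by -0.47 ± 0.25 (adjusted p = 0.203), so the 2 efflux pumps had opposite signs.

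Among the 7 regulators in this comparison, Scap, Insig1 and Srebf2 fell and Nr1h3 rose, a count of 3 lower and 1 higher with a median difference of -0.39, beside 11.6% of all features lower, 10.7% higher and a median of -0.11. The 1 higher call of 7 is near that share. Scap, the escort of SREBP-2, has its probe at chr9:110082822-110082881 (mm7). Levels were 5.63, 5.34, 5.55 and 5.41 on the control arrays, 4.90, 4.30, 4.47 and 5.15 with ERα lost, 5.03, 4.71, 4.88 and 5.34 with ERβ lost, and 4.88, 4.04, 4.00 and 3.73 with both lost. The Ex3aERKO and Ex3abERKO arrays were all below the controls, and the Ex3bERKO arrays were too, array 4 lying only just under control 2. Scap fell by 1.32 in Ex3abERKO (SE 0.24, 2.50-fold, adjusted p = 0.00162), with differences of -0.78 ± 0.24 in Ex3aERKO (adjusted p = 0.0669) and -0.50 in Ex3bERKO (adjusted p = 0.55).

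Insig1, itself a target of SREBP and a brake on its export, has its probe at chr5:27110161-27110220 (mm7). The control arrays read -1.62, -2.11, -1.63 and -1.42, the Ex3aERKO arrays -1.70, -1.56, -2.14 and -2.73, the Ex3bERKO arrays -1.87, -2.01, -2.37 and -2.39 and the Ex3abERKO arrays -2.20, -2.36, -3.18 and -2.79. The single knockouts overlapped the controls, and the arrays without both receptors lay below them by a narrow margin. Insig1 fell by 0.94 in Ex3abERKO (SE 0.27, 1.92-fold, adjusted p = 0.0228), with differences of -0.34 in Ex3aERKO (adjusted p = 0.568) and -0.47 in Ex3bERKO. The call was lost without control 1, 3 or 4 or Ex3abERKO 3 or 4 (adjusted p up to 0.0624) and without the 3 arrays (0.0688).

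Nr1h3, which encodes the oxysterol receptor LXRα, has its probe at chr2:91034994-91035053 (mm7). Levels were 0.34, 0.37, 0.35 and 0.72 on the control arrays, 0.78, 1.08, 0.95 and 0.29 with ERα lost, 0.56, 0.85, 0.57 and -0.10 with ERβ lost, and 0.98, 1.17, 0.99 and 1.73 with both lost. Only the group without both receptors was clear of the controls. Nr1h3 rose by 0.77 ± 0.23 (1.71-fold, adjusted p = 0.0286), a call lost without control 1, 2 or 3 or Ex3abERKO 2 or 4 (adjusted p up to 0.0865), without the 3 arrays (0.0625) and with the slide (0.0687) or the replicate number (0.0507) as a block.

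Srebf2 fell 1.42-fold (adjusted p = 0.0399), and this call was lost without control 1, 3 or 4, Ex3aERKO 3, Ex3bERKO 3 or any 1 Ex3abERKO array (adjusted p up to 0.128), without the 3 arrays (0.101), with the replicate number as a block (0.0707) and with normexp background (0.204). Srebf1, whose products drive fatty acid synthesis as well, differed by 0.26 ± 0.14 (adjusted p = 0.21). Insig2 and Nr1h2, the sister genes of Insig1 and Nr1h3, differed by 0.33 (adjusted p = 0.225) and -0.39 (adjusted p = 0.227).

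**Figure D2:**
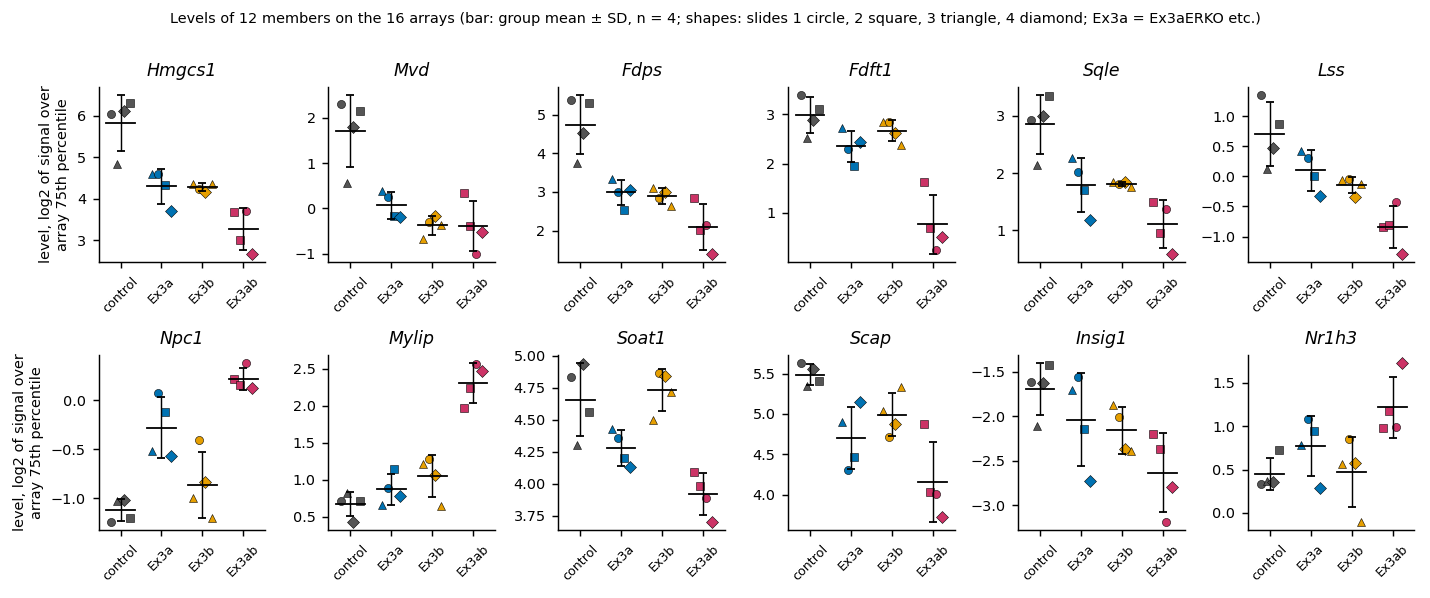
Level (log2 signal relative to the 75th percentile of the array) of the 12 members described array by array, with each array as a point, its shape giving the slide, and the bar giving the group mean ± SD (n = 4). Fdft1, Lss, Npc1, Mylip and Soat1 have the 4 Ex3abERKO arrays clear of all 12 others, whereas Hmgcs1, Mvd and Fdps have all 12 knockout arrays below the 4 controls.

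Loss of ERα alone left most of the pathway short of the threshold. Hmgcs1, Mvd, Idi1, Fdps and Sqle, all in the stretch from HMG-CoA to squalene epoxide, fell 2.08 to 3.39-fold, and Npc1 rose. In the limma fit 5 of 20 synthesis enzymes were called lower and 0 higher (12 lower and 0 higher at an unadjusted p under 0.05), against 7.94% of all features called, 4.15% lower and 3.79% higher. The median difference of the synthesis enzymes was -0.60 beside -0.08 over all features, and 19 of 20 differences were negative, Acat2 being the exception at 0.06. Idi1 (adjusted p = 0.0398) was lost without control 1, 3 or 4, Ex3aERKO 2, 3 or 4 or Ex3bERKO 1, 3 or 4 (adjusted p up to 0.119), and Sqle without control 1, 3 or 4 or Ex3aERKO 2, 3 or 4 (up to 0.0962). Without any of control 1, 3 or 4 or Ex3aERKO 2, 3 or 4 the count was 3, and without control 2 it was 9.

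Sc5d (-1.26 ± 0.37, adjusted p = 0.0503) and Dhcr7 (-1.50 ± 0.44, adjusted p = 0.0521) lay just outside the threshold in the ERα knockout, though a second Sc5d probe (-1.23, adjusted p = 0.00627 in a fit over probes) and a second Cyp51 probe (-1.08, adjusted p = 0.046) were called. Of the uptake and efflux genes only Npc1 was called, 1 of 8 with a median of 0.01, and Lipa differed by 0.86 ± 0.41 (adjusted p = 0.249). The Stard4 probe used was not called (-0.65), whereas its 2 dimmer probes were (-0.98, adjusted p = 0.0301 and -0.86, adjusted p = 0.0485). No regulator was called in the limma fit (1 lower at an unadjusted p under 0.05), and their median was -0.11. Without the 3 arrays above, no synthesis enzyme was called in this comparison (7 lower at an unadjusted p under 0.05) and the synthesis median was -0.57. The adjusted p there was 0.0741 for Hmgcs1, 0.0936 for Mvd, 0.0839 for Fdps and 0.142 for Npc1.

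Loss of ERβ alone gave 4 lower synthesis enzymes: Mvd 4.23-fold, Dhcr7 3.97-fold, Fdps 3.62-fold and Hmgcs1 2.92-fold. Few genes at all were called here, 1.03% of all features, 0.635% lower and 0.395% higher. The synthesis count was 4 of 20 lower and 0 higher in the limma fit (14 lower and 0 higher at an unadjusted p under 0.05), the median was -0.82 beside 0.01 over all features, and 18 of 20 differences were negative. The Ex3bERKO arrays sat close together for Hmgcs1 (4.17 to 4.36) and Sqle (1.76 to 1.85) but not for Tm7sf2 (0.23 to 1.81) or Acat2 (-2.60 to -1.52), and Dhcr7 (1.92 to 2.28) overlapped the controls through control 2 at 2.25.

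Single arrays moved these ERβ calls. Mvd was called without any single array (adjusted p up to 0.0389). Dhcr7 (adjusted p = 0.0464) was lost without every array but control 2 (up to 0.164) and with the replicate number as a block (0.055), Hmgcs1 without control 1, 3 or 4 or any 1 Ex3bERKO array (up to 0.123), and Fdps without control 1 or 4 or Ex3bERKO 2 or 3 (up to 0.0754). The count was 1 without control 1 or 4 or Ex3bERKO 2 or 3, 2 without control 3 or Ex3bERKO 1 or 4, and 9 without control 2. Without the 3 arrays above it was 0 (10 lower at an unadjusted p under 0.05), and the median was -0.67. With the slide as a fixed block it was 1, and with only control and Ex3bERKO in the fit it was 0.

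No uptake or efflux gene and no regulator was called in the ERβ knockout by limma, and 0 passed an unadjusted p of 0.05 in either role. The differences ran from -0.59 for Stard4 to 0.37 for Mylip among the first and from -0.50 to 0.02 among the second, with medians of 0.26 and -0.15.

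The role medians show the 2 arms side by side. The median over the 20 synthesis enzymes of the difference from the control mean was 0.26, -0.66, -0.07 and 0.47 on the control arrays, -0.46, -0.48, -0.97 and -0.88 with ERα lost, -0.86, -0.76, -0.67 and -1.09 with ERβ lost, and -1.35, -1.74, -1.54 and -2.13 with both lost. Control 2 was as low as several single knockout arrays, and the arrays without both receptors were the lowest 4. The same median over the 8 uptake and efflux genes was 0.02 to 0.13 on the control arrays, -0.25 to 0.28 with ERα lost, -0.25 to 0.66 with ERβ lost and 0.56 to 1.04 with both lost, where only Ex3bERKO 2 reached into the last range. The synthesis median minus the uptake and efflux median was -0.08 ± 0.45 (SD, n = 4) in control, -0.71 ± 0.38 in Ex3aERKO, -0.95 ± 0.34 in Ex3bERKO and -2.45 ± 0.54 in Ex3abERKO. These medians are descriptions and were given no test.

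**Figure D3:**
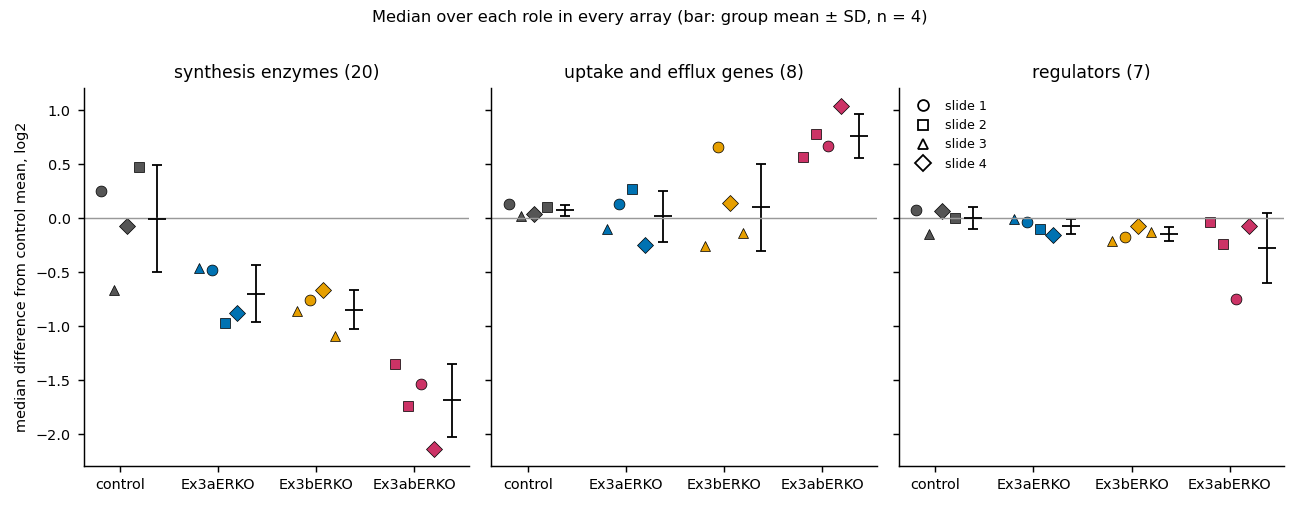
Median log2 difference from the control mean over the members of each role, one point per array, in the 4 groups; shapes give the slide and bars the group mean ± SD (n = 4). The synthesis points fall from control through the single knockouts to Ex3abERKO (-2.13 to -1.35), while the uptake and efflux points rise above the controls in Ex3abERKO (0.56 to 1.04).

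Within slides, where each knockout array is set against the control of its own slide, the Ex3abERKO synthesis median was -1.80, -1.96 and -1.92 on slides 1, 2 and 4, and the uptake and efflux median was 0.54, 0.34 and 0.98. In total 18 of the 20 synthesis enzymes were lower on all 3 slides, as were 26.3% of all features. The single knockouts were less even. The Ex3aERKO synthesis median was -0.89, -1.25 and -0.70 on slides 1, 2 and 4 but 0.13 on slide 3, whose control is control 2, and 5 of 20 enzymes were lower on all 4 slides, a share near the 23.9% of all features. The Ex3bERKO median was -0.99, -0.23 and -0.67 on slides 1, 3 and 4, with 14 of 20 lower on all 3, against 21.9% of all features.

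**Figure D4:**
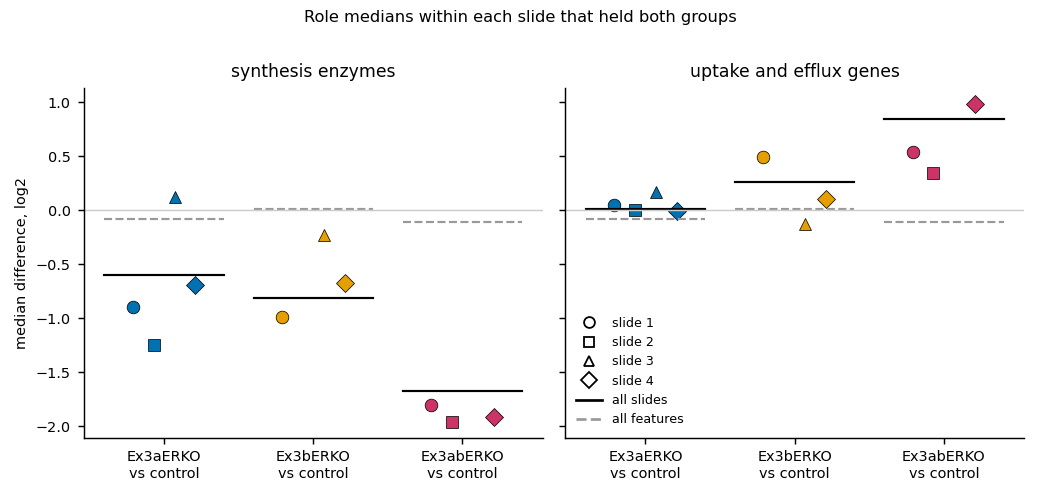
Median log2 difference from control within each slide that holds both groups, for the synthesis enzymes and the uptake and efflux genes; the black line is the median in the fit over all arrays and the dashed grey line the median of all features. The Ex3abERKO synthesis medians lie at -1.80, -1.96 and -1.92 on the 3 slides, and the Ex3aERKO median is above 0 on slide 3 alone, at 0.13.

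Set directly against the single knockouts, the ovaries without either receptor were lower for part of the pathway. Against Ex3aERKO, Fdft1 (-1.58 ± 0.28, adjusted p = 0.00415), Tm7sf2 (-1.84 ± 0.41, adjusted p = 0.0139), Nsdhl, Cyp51 and Lss were lower, 5 of 20 synthesis enzymes with a median of -0.82 beside -0.01, and 7.79% of all features were called (3.34% lower, 4.45% higher). Mylip was the only uptake or efflux gene called, higher by 1.44 ± 0.18 (2.71-fold, adjusted p = 0.000677), and no regulator was called (1 higher and 2 lower at an unadjusted p under 0.05). Without the 3 arrays, 1 synthesis enzyme, Fdft1, was called (adjusted p = 0.0367) and Mylip was too (0.00985). The Fdft1 call was also lost with the mean of its probes (0.0859). The synthesis count was 2 without Ex3aERKO 1 or Ex3abERKO 4 and 3 without Ex3aERKO 2 or 3 or Ex3abERKO 2. Lss was lost without Ex3aERKO 1, 2 or 3 or Ex3abERKO 1, 2 or 4, Cyp51 without any of 9 single arrays and Nsdhl without Ex3aERKO 1 or Ex3abERKO 4, with adjusted p up to 0.104, 0.119 and 0.0557.

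Against Ex3bERKO, 16.7% of all features were called (8.41% lower, 8.27% higher). Hmgcs1, Fdft1, Msmo1 and Nsdhl were lower, 4 of 20 synthesis enzymes with a median of -0.74 beside -0.10, and Fdft1 had the largest of these differences (-1.90 ± 0.28, 3.72-fold lower, adjusted p = 0.000681). Of the uptake and efflux genes 4 of 8 were higher, Mylip (1.26 ± 0.18, adjusted p = 0.000651), Npc1 (1.08 ± 0.19, adjusted p = 0.00175), Npc2 (0.96 ± 0.23, adjusted p = 0.0115) and Lipa (1.51 ± 0.41, adjusted p = 0.0211), and Soat1 was lower (-0.82 ± 0.16, adjusted p = 0.00384). Within slides the uptake and efflux median was -0.06 on slide 1 and 0.99 on slide 4, and the synthesis median was -0.51 and -1.10. Lipa was lost without Ex3bERKO 1 or 4 or Ex3abERKO 1 or 4, and Npc2 with the slide as a fixed block (0.0788). Scap was lower (-0.83 ± 0.24, adjusted p = 0.0323) and Nr1h3 higher (0.75 ± 0.23, adjusted p = 0.0418), and neither was called without the 3 arrays (0.0954 and 0.0919). The synthesis count was 1 without the 3 arrays, 1 without any of Ex3bERKO 1, 2 or 3 or Ex3abERKO 2 or 4, 2 without any of control 3, Ex3aERKO 3 or Ex3bERKO 4, and 7 without Ex3abERKO 3. Of the other 3 enzymes, Hmgcs1 (adjusted p = 0.0427) and Msmo1 (0.0485) were lost without any 1 Ex3bERKO array or Ex3abERKO 2 or 4, among others (up to 0.118 and 0.136), and Nsdhl (0.0279) without Ex3bERKO 1, 2 or 3 or Ex3abERKO 2 or 4 (up to 0.0809). Scap was lost without Ex3bERKO 1, 3 or 4 or Ex3abERKO 2, 3 or 4 (up to 0.105), and Nr1h3 without any of 10 single arrays (up to 0.139).

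The ERα and ERβ knockouts were not told apart in these genes. Of all features 2.34% differed between them (0.651% higher and 1.69% lower in Ex3aERKO), and 0 of the 35 members did in the limma fit, with 2 higher and 2 lower in Ex3aERKO at an unadjusted p under 0.05. The differences ran from -0.57 to 0.84 among the synthesis enzymes, -0.72 to 0.58 among the uptake and efflux genes and -0.28 to 0.30 among the regulators, and these values do not show that the knockouts act alike.

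The interaction, which asks whether the difference that loss of ERβ makes depends on ERα, was called for 3.6% of all features and for 1 of the 35 members, Mylip (1.07 ± 0.26, adjusted p = 0.0338). Its difference without ERβ was 0.37 ± 0.18 beside control and 1.44 ± 0.18 beside Ex3aERKO. The interaction was 1.12 and 1.05 within slides 1 and 4. The call was lost without control 1, 2 or 4, Ex3aERKO 1, 2 or 4, Ex3bERKO 3 or 4 or Ex3abERKO 2 or 4 (adjusted p up to 0.0738), without the 3 arrays (0.156), with normexp background (0.125), with the slide as a fixed block (0.0845) and with the replicate number as a block (0.0618), and a second, dimmer Mylip probe gave 0.06. Among the synthesis enzymes 0 of 20 were called, with 4 higher and 1 lower at an unadjusted p under 0.05. Mvd (1.62 ± 0.49, adjusted p = 0.0917) and Fdft1 (-1.27 ± 0.39, adjusted p = 0.0961) came closest and had opposite signs, Mvd being called lower in each single knockout and Fdft1 in neither.

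Across the 16 arrays the synthesis enzymes also varied together around their group means. The median correlation of these residuals was 0.59 over the 190 pairs of synthesis enzymes, of which 167 were above 0, and 0.10 over the 160 pairs of a synthesis enzyme with an uptake or efflux gene. Cyp51, Fdps, Idi1 and Hmgcs1 had the highest median correlation with the other synthesis enzymes (0.74, 0.72, 0.72 and 0.71), while Lbr (-0.04) and Mvk (0.02) were near 0. Outside the enzymes, Soat1 (0.53), Insig1 (0.48), Stard4 (0.42) and Npc2 (0.39) had the highest median values, the first 3 lower and Npc2 not lower without both receptors, and Mylip (-0.16), Abca1 (-0.16), Abcg1 (-0.11) and Npc1 (0.08) had values near 0. The genes of an array share its slide and depth, and no background over pairs of other features is given, so these correlations are descriptions. The spread was uneven between groups. The SD of Dhcr7 was 1.27 in control and 0.17 to 0.31 in the knockout groups, and that of Fdft1 was 0.36 in control and 0.60 in Ex3abERKO.

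Other genes of sterol metabolism, from lists set by function, are given beside the members, and their counts read against 7.94%, 1.03% and 22.3% of all features called in the ERα, ERβ and combined knockouts. Of 10 measured genes of sterol and isoprenoid side steps, 2 were lower in Ex3aERKO, 1 in Ex3bERKO and 2 in Ex3abERKO. Hsd17b7, which removes the keto group in C4 demethylation and also makes estradiol, differed by -3.30 in Ex3aERKO (9.85-fold lower, adjusted p = 0.000596), -3.88 in Ex3bERKO (14.7-fold, adjusted p = 0.00105) and -4.07 in Ex3abERKO (16.9-fold, adjusted p = 6.43e-05), and it was called in all 3 without the 3 arrays (0.0120, 0.0142 and 0.0021). Its fall was larger than that of any member.

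Of 22 other genes of sterol uptake and transport, 2 were higher and 2 lower with ERα lost, 0 higher and 1 lower with ERβ lost, and 2 higher and 2 lower with both lost, the last a smaller share than that of all features. Cd36, a scavenger receptor for lipids, was 8.50-fold higher without both receptors (adjusted p = 0.000273). Vldlr, a lipoprotein receptor, was lower by 1.64 in Ex3aERKO and by 1.58 in Ex3abERKO. Of 13 other regulators, 0 were called in Ex3aERKO (1 higher at an unadjusted p under 0.05 in limma) and 0 in Ex3bERKO (1 lower). In Ex3abERKO 1 was higher and 2 lower, 23.1% of the list and near the 22.3% of all features. Rxra, the partner of the liver X receptors, was higher by 0.68 (adjusted p = 0.0043). Nr5a2 and Nr5a1, nuclear receptors that drive steroid synthesis, were lower by 3.11 and 2.23. Of 16 genes of fatty acid synthesis, the neighbouring SREBP-1 programme, 6 were lower and 0 higher in Ex3abERKO with a median of -0.72, led by Elovl6, Elovl5 and Me1 (-3.12, -1.60 and -1.32), beside 11.6% of all features lower.

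Markers of several cell types differed between the same groups, and their counts are read against the same shares of all features, 10.7% higher and 11.6% lower without both receptors, 3.79% and 4.15% in Ex3aERKO and 0.395% and 0.635% in Ex3bERKO. Of 16 macrophage genes, all 16 were higher without both receptors (median 1.75, and 12 of 16 without the 3 arrays), 5 in Ex3aERKO (0 without the 3 arrays, 9 at an unadjusted p under 0.05) and 0 in Ex3bERKO (1 at an unadjusted p under 0.05 in limma). Their summed level, a sum of signals each relative to the 75th percentile, was 202.5 to 287.7 on the control arrays, 341.4 to 513.4 with ERα lost, 247.0 to 444.6 with ERβ lost and 608.2 to 714.1 with both lost. Gpnmb, Trem2 and Cd68, genes of lipid-laden and other macrophages, had the largest differences (3.52, 2.72 and 2.70). The highest Ex3bERKO array in uptake and efflux, array 2 at 0.66, was also the highest of its group in macrophage genes, at 1.09. That is 1 array singled out, and the relation of the 2 lists over the 16 arrays was not tested.

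Of 10 luteal and steroidogenic genes, 8 were lower without both receptors (median -2.58, and 7 without the 3 arrays), 5 in Ex3aERKO (median -1.50) and 1 in Ex3bERKO (median -1.04, with 7 at an unadjusted p under 0.05). The counts in the ERα and ERβ knockouts were 2 and 0 without the 3 arrays, the latter with 6 at an unadjusted p under 0.05. Their summed level was 453.9 to 827.8 on the control arrays, 230.2 to 331.0 with ERα lost, 238.9 to 443.9 with ERβ lost and 85.4 to 218.3 with both lost, so every knockout array was below every control. Lhcgr, Cyp11a1 and Star, the receptor, the side-chain cleavage enzyme and the mitochondrial cholesterol carrier of luteal cells, had differences of -4.36, -3.48 and -3.15 in Ex3abERKO. Every gene of the macrophage and luteal lists was well above background on at least 1 array of each group. Of 10 granulosa cell genes, 5 were lower in Ex3abERKO (4 without the 3 arrays), and in Ex3aERKO 1 was higher and 1 lower. In Ex3aERKO, 6 of 8 oocyte genes and 6 of 9 endothelial genes were lower (3 and 1 without the 3 arrays), and 4 of 7 theca and Leydig genes were higher and 1 lower (3 and 1). Of 8 adipose genes 3 were lower and 0 higher there (also 3 and 0 without the 3 arrays). In Ex3bERKO, 2 of 7 theca and Leydig genes were higher and 0 lower (1 and 0). In Ex3abERKO, 5 of 8 oocyte genes and 5 of 9 endothelial genes were lower (3 and 1 without the 3 arrays). The part of any of these cell types in the differences of the cholesterol genes was not tested.

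**Figure D5:**
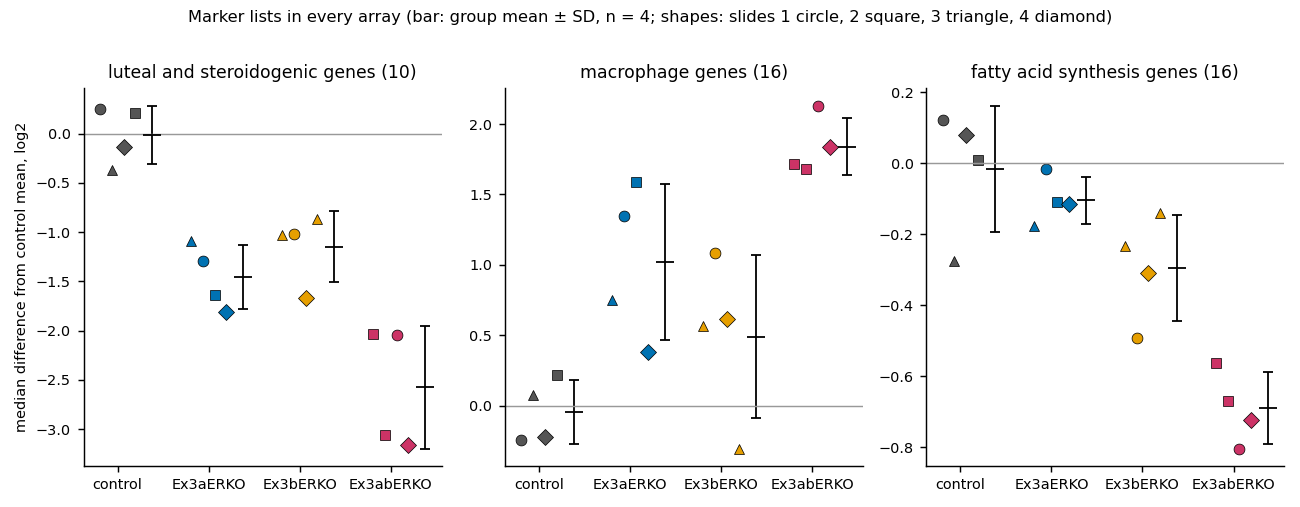
Median log2 difference from the control mean of the macrophage, luteal and steroidogenic, and fatty acid synthesis lists on each array, by group, with shapes for slides and bars for the group mean ± SD (n = 4). The macrophage medians are 1.68 to 2.13 in Ex3abERKO beside -0.24 to 0.22 in control, and the luteal medians are -3.17 to -2.04 beside -0.37 to 0.25.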

How the data were processed

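RNA of whole ovaries was isolated with TRIzol and Cy3-labelled cRNA hybridised to Agilent arrays, per the labels' protocols, and scanned with Feature Extraction 9.5, per the submitters' processing notes. The deposited files hold background-corrected spot intensity, per the file headers. Here each intensity was divided by the 75th percentile of its array and taken to log2. Probes well above background on at least 4 of 16 arrays were kept (36214 of 41174), and 1 probe per gene, the brightest, was used. The 75th percentile was 1211 to 1806 and the number of arrays limits the precision. All 4 groups were fitted together with limma 3.58.1 in R 4.3.3 (12 residual degrees of freedom), with Benjamini-Hochberg adjustment over 24584 features. In simulated data for Ex3abERKO against control, 38% of changes of log2 1 and 72% of log2 2 were recovered. Those data had independent noise and few changed features, whereas 22.3% of features were called in the real comparison. The recovery in the real data was therefore not measured.

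The members and lists were chosen with earlier results of these data known. All 35 members were to be named by role, with array values for up to 12 of those called against control, by smallest adjusted p, including at least 3 uptake and efflux genes and 3 regulators; of other lists, at most 3 called genes a comparison, by largest difference. Marker lists not described in the report also gave calls without either receptor. Stroma had 3 higher and 1 lower, and theca and Leydig 2 higher and 2 lower. Adipose had 1 lower, liver 1 higher and oviduct 1 higher. Erythroid had 0 (also 0 at an unadjusted p under 0.05), with a median difference of 0.93 over all arrays. Without the 3 arrays named above, 3 of 5 erythroid genes were called higher and their median was 1.99. Replicate numbers did not pair the arrays (r -0.29 to 0.43 between same-numbered arrays). Alternatives were scaling, background, filter, probe rule, slide and replicate blocks, array weights, groups fitted and arrays left out. Coordinates of probes are mm7, per the file headers, and those of promoters GRCm38.p6.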

Additional observations from a re-analysis of the deposited data

Results flagged for a closer look

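In 152 groups of 4 arrays examined, 5 had a single array far from the other 3, and chance flags about 1 in 20 groups. Ebp was 3.73 on Ex3bERKO 4 against 4.15 to 4.17 on the others, Dhcr7 was 2.28 on the same array against 1.92 to 1.97, Abcg1 was 0.26 on control 3 against 1.58 to 1.85, Nr1h2 was 1.26 on control 1 against 0.89 to 0.95, and Nr1h3 was 0.72 on control 4 against 0.34 to 0.37. The interaction term of Mylip was called (1.07, adjusted p = 0.0338 in limma), the 1 such call among 35 members, beside 3.6% of all features. This call was lost without several single arrays and in several alternatives, and a second, dimmer Mylip probe gave 0.06.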

How the results depend on the processing

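Without either receptor, the lower synthesis count (16 of 20) was 13 to 18 and the higher uptake and efflux count (4 of 8) was 3 to 4 in all alternatives run, and no called member reversed; of the medians near 0, that of the regulators in Ex3bERKO went from -0.15 to 0.01 with normexp, and that of uptake and efflux in Ex3aERKO from 0.01 to -0.17 without control 3. The smaller counts moved. The 5 lower synthesis enzymes of Ex3aERKO became 3 with median scaling, 3 with normexp, 10 with array weights and 3 with only the compared groups. They became 0 without the 3 arrays (3 to 9 with single arrays left out). The 1 higher uptake and efflux gene there became 0 with normexp, 2 with array weights and 0 without the 3 arrays. The 4 of Ex3bERKO became 2 with median scaling, 2 with normexp, 1 with the slide as a fixed block, 8 with array weights, and 0 with only the compared groups or without the 3 arrays (1 to 9). Against Ex3aERKO, the 5 lower enzymes of Ex3abERKO became 3 with median scaling, 9 with array weights and 2 with only the compared groups. They became 1 without the 3 arrays (2 to 7). The 1 higher uptake and efflux gene of that comparison became 2 with the mean of probes. Against Ex3bERKO, the 4 became 1 with median scaling, 1 with normexp, 8 with array weights and 1 without the 3 arrays (1 to 7). The 4 higher uptake and efflux genes became 2 with the slide as a fixed block and stayed 4 with it as a random block. The 1 interaction called among the uptake and efflux genes became 0 with normexp, the mean of probes, the fixed slide block or the replicate block. It also became 0 without the 3 arrays (0 to 1), and stayed 1 with the slide as a random block. The interaction median of the uptake and efflux genes, 0.45, became 0.18 with the fixed slide block. The cause was not tested; without the 3 arrays there are fewer samples. The replicate block gave 5, 3 and 16 lower synthesis enzymes in the ERα, ERβ and combined knockouts. Normexp moved the median of all features from -0.08, 0.01 and -0.11 to -0.34, -0.27 and -0.36 in these comparisons. Features called numbered 1951, 253 and 5481, against 945, 151 and 3131 with normexp, 5140, 801 and 8506 with array weights, 560, 63 and 3257 without the 3 arrays and 1861, 86 and 4145 with only the compared groups.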
